A study of Mus musculus with 3 samples.

Results

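The genes described here are 10 components and targets of the NF-kappaB pathway, measured in 3 RNA libraries of selected cells from mouse dura mater. They were taken from a given list of symbols whose rule names no measured value, although the list was drawn up with earlier results of these data known, and they are 10 of the 54532 genes in the deposited tables. The list holds 4 transcription factor subunits (Nfkb1, Nfkb2, Rela and Relb), 3 genes of feedback and survival (Nfkbia, Tnfaip3 and Birc3) and 3 adhesion molecules of the vessel wall (Icam1, Vcam1 and Sele). All mice belonged to the 4T1-DM model and had been inoculated with 4T1-DM cells, 4T1 being a mouse mammary carcinoma line. The 3 treatments are labelled PBS, ZOL and ZOL+Ang2, and the labels do not expand these names. The sources used here give no strain, age, dose or schedule, and all 3 groups carried the tumour cells. On day 12 after inoculation the dorsal dura was taken apart with DNase I and collagenase VIII, and the cells measured are labelled CD45- CD31+ PDPN+. Each group is 1 library made from a pool of 6 mice, so the spread between animals was not measured and no difference below was tested.

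NF-kappaB is a family of dimeric transcription factors held in the cytoplasm by IkappaB proteins. In the canonical branch, signals from tumour necrosis factor, interleukin-1 or Toll-like receptors activate the IKK complex, which marks IkappaB alpha for destruction and frees dimers of RelA with p50. In the non-canonical branch, the kinase NIK drives the processing of p100 into p52, which pairs with RelB. The freed factors switch on their own brakes along with survival genes and, in endothelium, the adhesion molecules that capture leukocytes from blood.

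Promoter sequence is shown first for the members in which a kappaB motif was found, since this is the DNA feature that NF-kappaB dimers are known to bind. RefSeq promoter windows (GRCm38.p6, the build of the mm10 coordinates) covered Birc3, Icam1, Nfkb2, Nfkbia, Rela, Sele and Tnfaip3, which are 7 of the 10 genes, in 10 windows. Both strands were searched for the degenerate kappaB consensus and for the shorter GGNNNTTCC, which can overlap it. In the 250 bases before the start, the consensus was found for Nfkb2, Nfkbia and Tnfaip3, and in 7.251% of all 32851 windows of the table. GGNNNTTCC was found for Icam1, Nfkb2, Nfkbia, Sele and Tnfaip3, and in 15.659% of all windows. A gene can have several windows, so counts of genes and shares of windows are not directly comparable. These letters were not in the windows of Birc3 and Rela. The lines below give the 250 bases before the start of Icam1 (chr9:21015690-21015939, plus strand), Nfkbia (chr12:55492648-55492897, minus strand) and Sele (chr1:164047984-164048233, plus strand). They are written 5′ to 3′ on the strand of the gene, with matches on either strand in capitals.
Icam1: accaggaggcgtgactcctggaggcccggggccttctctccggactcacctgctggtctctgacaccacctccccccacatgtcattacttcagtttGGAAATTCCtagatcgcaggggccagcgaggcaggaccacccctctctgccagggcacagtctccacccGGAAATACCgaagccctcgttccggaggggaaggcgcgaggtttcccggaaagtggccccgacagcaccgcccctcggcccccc
Nfkbia: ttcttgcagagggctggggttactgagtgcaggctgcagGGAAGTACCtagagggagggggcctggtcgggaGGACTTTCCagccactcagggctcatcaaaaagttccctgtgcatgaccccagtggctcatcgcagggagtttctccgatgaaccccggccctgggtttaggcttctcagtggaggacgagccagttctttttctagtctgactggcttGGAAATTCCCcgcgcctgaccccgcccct
Sele: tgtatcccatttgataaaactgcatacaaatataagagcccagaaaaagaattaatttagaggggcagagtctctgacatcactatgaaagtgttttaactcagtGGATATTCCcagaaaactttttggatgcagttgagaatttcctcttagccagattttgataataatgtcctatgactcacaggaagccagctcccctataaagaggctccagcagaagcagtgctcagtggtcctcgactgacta
Counted from the start, the matches of Icam1 lay at -153 to -145 and -84 to -76. Those of Nfkbia lay at -211 to -203, -178 to -170 and -29 to -20, and the last of these is also a match to the consensus. The single match of Sele lay at -145 to -137. The start-proximal windows of Tnfaip3 and Nfkb2 lie partly or wholly within annotated exons, so only the 30 bases next to the start are shown, from chr10:19015411-19015440 (minus strand) and chr19:46304707-46304736 (plus strand). The leading capitals of Nfkb2 are the end of an earlier match.
Tnfaip3: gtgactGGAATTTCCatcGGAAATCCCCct
Nfkb2: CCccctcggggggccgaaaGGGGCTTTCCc

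Values are given as reads per gene, recovered from the deposited RPKM (reads scaled by gene length and by a library total), and as CPM, a read count per library total, scaled between libraries by TMM (trimmed mean of M-values) factors. Recovered reads summed to 1675848, 16585930 and 9202097 in the PBS, ZOL and ZOL+Ang2 libraries, so 1 read is worth 0.538, 0.0637 and 0.114 CPM. A gene with 0 reads may have up to 3 by counting error, which is 1.62, 0.191 and 0.342 CPM. Among genes of 1 to 40 reads, 61.5%, 53.3% and 51.2% had an even number in the PBS, ZOL and ZOL+Ang2 libraries. The sources do not say whether both mates of a pair were counted, and if they were, intervals and floors from few reads are too narrow. PBS was the shallowest library, and scaling moved its comparisons: over the 10941 genes that averaged 10 CPM or more, the median log2 ratio of ZOL to PBS was 0.94 with TMM, 0.24 with median-of-ratios factors and -0.05 on the deposited RPKM plus 1. The median log2 ratio of ZOL+Ang2 to ZOL was -0.02 with TMM and 0 on both of the others. PBS also differed in make-up. Mitochondrial, satellite-type, ribosomal RNA, chemoreceptor and haemoglobin genes together held 37.6%, 9.34% and 15.3% of recovered reads (PBS, ZOL, ZOL+Ang2). Library totals without those genes gave a median log2 ratio of ZOL to PBS of 0.34. All 18 pan-endothelial markers had reads in all 3 libraries, but Pecam1, which encodes CD31, had 2 reads in PBS against 7454 in ZOL and 1556 in ZOL+Ang2. Of the defining lymphatic markers, Lyve1 had 0 reads in all 3 libraries, and Prox1 had 2 reads in PBS and 0 in the others. The 10 lymphatic markers summed to 397, 353 and 313 CPM, led over the 3 libraries by Nrp2 and Pdpn. Ptprc, which encodes CD45, was at 156, 25.1 and 76.0 CPM in the PBS, ZOL and ZOL+Ang2 libraries.

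All 10 genes had their highest CPM in the ZOL library under TMM, a place held by 35.9% of all genes compared. Relb and Birc3 averaged under 10 CPM (4.65 and 5.97) and so are not among the genes compared. On the deposited RPKM, Vcam1 and Sele were instead highest in PBS. In descending order of ZOL, ZOL+Ang2 and PBS stood 6 of the 10 (Nfkb1, Nfkb2, Rela, Nfkbia, Icam1 and Vcam1) under TMM, an order seen in 25.9% of all genes compared. The remaining genes were the 4 least abundant in ZOL (Tnfaip3, Sele, Birc3 and Relb, at 12.9 to 51.0 CPM), and each had 7 reads or fewer in ZOL+Ang2. On the deposited RPKM, Icam1 and Vcam1 left the descending order. For Icam1, PBS stood at 11.9 RPKM and ZOL+Ang2 at 9.66, and for Vcam1 at 29.3 and 14.2. The 3 libraries are shared among the 3 comparisons, so a high value in ZOL enters both comparisons that use it.

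**Figure D1:**
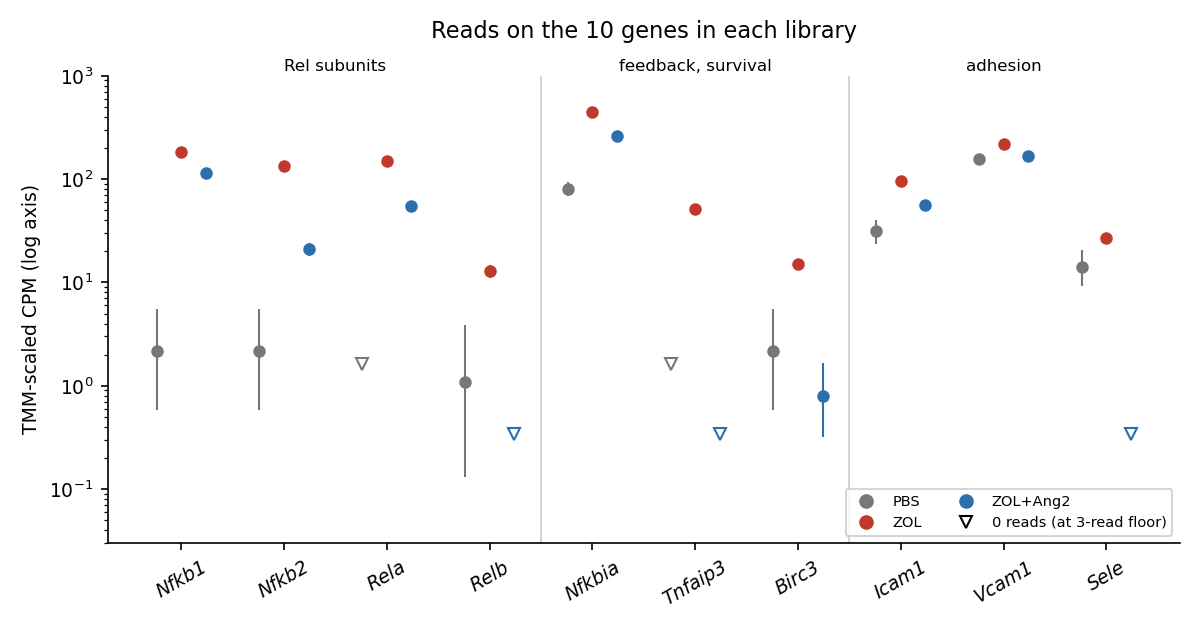
TMM-scaled CPM (log axis) of the 10 genes in the PBS, ZOL and ZOL+Ang2 libraries. Bars are exact 95% intervals that cover counting error only, and open triangles mark 0 reads, drawn at the floor of 3 reads. The ZOL point is the highest for every gene on this scaling, and Relb, Tnfaip3 and Sele had 0 reads in ZOL+Ang2.

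Among the subunits, Rela and Nfkb1, which supply the canonical dimer, were abundant in ZOL and lower in ZOL+Ang2. Nfkb2 was lower there by a larger factor, and Relb had no reads there. Rela (ENSMUSG00000024927, chr19:5637483-5648130, plus strand) encodes the p65 subunit that carries the main transactivation domain, and had 0 reads in PBS, 2328 in ZOL (148 CPM) and 481 in ZOL+Ang2 (54.8 CPM). Nfkb1 (ENSMUSG00000028163, chr3:135584655-135691547, minus strand) encodes p105, the precursor of p50, and had 4 reads in PBS (2.15 CPM), 2856 in ZOL (182 CPM) and 1010 in ZOL+Ang2 (115 CPM). For both genes ZOL stood highest, ZOL+Ang2 between, and PBS at the floor or close to it. ZOL+Ang2 was 2.70-fold lower than ZOL for Rela (95% interval 2.45 to 2.99, exact binomial, counting error only, as for all intervals below). It was 1.58-fold lower for Nfkb1 (1.47 to 1.70). In these bulk samples, fewer cells of a type and less RNA per cell cannot be told apart.

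Nfkb2 (ENSMUSG00000025225, chr19:46304320-46312385, plus strand), which encodes p100, the precursor of p52, had 4 reads in PBS (2.15 CPM), 2082 in ZOL (133 CPM) and 184 in ZOL+Ang2 (21.0 CPM). Relb (ENSMUSG00000002983, chr7:19606217-19629438, minus strand), which encodes the partner of p52, had 2 reads in PBS (1.08 CPM), 202 in ZOL (12.9 CPM) and 0 in ZOL+Ang2. Nfkb2 was thus far higher in the ZOL library than in either of the others. Relb was far higher in ZOL than in ZOL+Ang2. Its ratio of ZOL to PBS rests on 2 PBS reads and was 2.19-fold on RPKM plus 1. ZOL+Ang2 was 6.32-fold lower than ZOL for Nfkb2 (5.44 to 7.39) and at least 37.6-fold lower for Relb, taken against the floor of 3 reads. Relb had a mean of 4.65 CPM and so lay below the filter used for counts. The remaining family gene, Rel, which encodes c-Rel, had 0, 190 and 2 reads in PBS, ZOL and ZOL+Ang2.

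Within a library the make-up of the family does not depend on how libraries are scaled. Levels of different genes are compared per length, on the deposited RPKM. In ZOL the 4 subunits summed to 75.1 RPKM, of which Rela took 48.2%, Nfkb2 35.6%, Nfkb1 13.3% and Relb 2.92%. In ZOL+Ang2 they summed to 27.01 RPKM, of which Rela took 55.9%, Nfkb1 26.4% and Nfkb2 17.7%. Nfkb2 was therefore above Nfkb1 in ZOL, with an RPKM ratio of 2.67, and below it in ZOL+Ang2, with a ratio of 0.668. In PBS all 4 subunits together had 10 reads and 1.84 RPKM, so its make-up (59.0% Nfkb2, 24.96% Relb, 16.1% Nfkb1 and 0% Rela) rests on single reads. The gene length behind the deposited RPKM enters each share, and for Nfkb2 and Rela that length differed from GENCODE M21. By reads, Nfkb1 was above Nfkb2 in ZOL, at 2856 against 2082. The order of these genes in ZOL thus rests on the lengths used, 12061 bases for Nfkb1 and 3289 for Nfkb2.

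**Figure D2:**
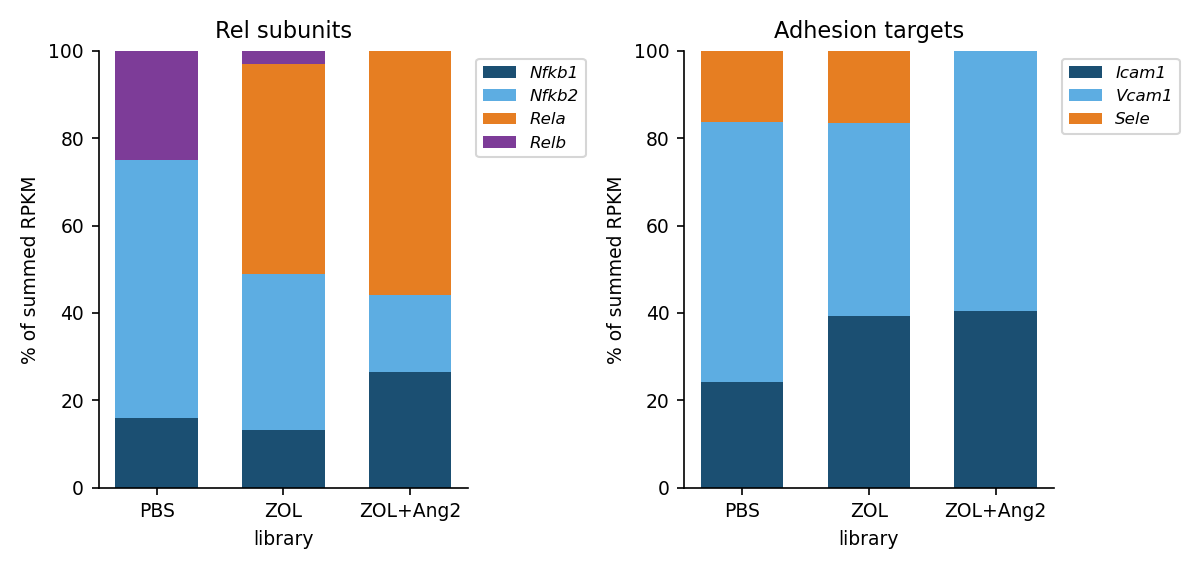
Share of summed RPKM (percent) taken by each Rel subunit (left) and each adhesion gene (right) within the PBS, ZOL and ZOL+Ang2 libraries. Nfkb2 took 35.6% of the subunit sum in ZOL and 17.7% in ZOL+Ang2, Sele took 0% of the adhesion sum in ZOL+Ang2, and the PBS subunit bar rests on 10 reads.

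The feedback genes separated into an abundant one, present in every library, and 2 scarce ones. The scarce ones had 7 reads or fewer in PBS and in ZOL+Ang2. Nfkbia (ENSMUSG00000021025, chr12:55489410-55492647, minus strand) encodes IkappaB alpha, the inhibitor that returns RelA to the cytoplasm, and had 149 reads in PBS (80.2 CPM), 7054 in ZOL (449 CPM) and 2275 in ZOL+Ang2 (259.3 CPM). It had the highest RPKM of the 10 genes in all 3 libraries, at 82.6, 185 and 120.5 RPKM. ZOL+Ang2 was 1.73-fold lower than ZOL (1.65 to 1.82). Its RPKM relative to that of Rela was 5.11 in ZOL and 7.98 in ZOL+Ang2, and relative to Nfkb1 it was 18.5 and 16.9.

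Tnfaip3 (ENSMUSG00000019850, chr10:19000910-19015657, minus strand) encodes A20, a ubiquitin-editing enzyme that shuts off signalling to IKK, and had 0 reads in PBS, 801 in ZOL (51.0 CPM) and 0 in ZOL+Ang2. Birc3 (ENSMUSG00000032000, chr9:7848699-7873186, minus strand) encodes cIAP2, a ubiquitin ligase of the TNF receptor complex that limits cell death, and had 4, 235 and 7 reads (2.15, 14.97 and 0.798 CPM). In the shallower PBS library, the 4 reads of Birc3 came to 0.713 RPKM, against 1.98 RPKM in ZOL. ZOL+Ang2 was at least 149-fold lower than ZOL for Tnfaip3 and 18.8-fold lower for Birc3 (8.96 to 47.2, from 7 reads). Of the 5773 genes at 10 to 60 CPM in ZOL, 20.4% had 0 reads in ZOL+Ang2 and 39.6% had 0 reads in PBS. Tnfaip3 lies near the upper end of that range. Of the 1832 genes at 100 to 500 CPM in ZOL, 1.8% had 0 reads in ZOL+Ang2. Birc2, the neighbouring gene that encodes cIAP1, went the other way, with 0 reads in PBS, 149 in ZOL (9.49 CPM) and 394 in ZOL+Ang2 (44.9 CPM).

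Vcam1 and Icam1 were measured in every library and differed less between libraries than most members, whereas Sele had no reads in ZOL+Ang2. Vcam1 (ENSMUSG00000027962, chr3:116109949-116129688, minus strand), the ligand of the integrin alpha4 beta1, had 291 reads in PBS (157 CPM), 3442 in ZOL (219 CPM) and 1482 in ZOL+Ang2 (169 CPM). Icam1 (ENSMUSG00000037405, chr9:21015985-21028817, plus strand), the ligand of the beta2 integrins, had 58, 1507 and 494 reads (31.2, 96.0 and 56.3 CPM). Both genes had reads well above the floor in every library. ZOL+Ang2 was 1.30-fold lower than ZOL for Vcam1 (1.22 to 1.38) and 1.70-fold lower for Icam1 (1.54 to 1.89). Sele (ENSMUSG00000026582, chr1:164048234-164057677, plus strand) encodes E-selectin, on which leukocytes roll, and had 26 reads in PBS (14.0 CPM), 424 in ZOL (27.01 CPM) and 0 in ZOL+Ang2. ZOL+Ang2 was at least 79.0-fold lower than ZOL and at least 40.9-fold lower than PBS for Sele.

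Per length, Vcam1 led the 3 adhesion genes in each library, with 59.6%, 44.1% and 59.6% of their summed RPKM in PBS, ZOL and ZOL+Ang2 respectively. Icam1 took 24.2%, 39.3% and 40.4%, and Sele 16.2%, 16.6% and 0%. Selp, the P-selectin gene that lies 57586 bases from Sele, had 4, 373 and 0 reads in PBS, ZOL and ZOL+Ang2. Icam4 and Icam5, which lie next to Icam1, had 0 reads in all 3 libraries. These neighbours were chosen after their values were seen.

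Read as a group, all 10 genes were lower in ZOL+Ang2 than in ZOL, against 50.7% of all genes compared, which include 8 of the 10. The filter of 10 CPM kept 8 members, of which 4 (Nfkb2, Rela, Tnfaip3 and Sele) were at least 2-fold lower and 0 at least 2-fold higher, against a background of 30.7% lower and 21.2% higher over all genes. Tnfaip3 and Sele passed that filter only through their ZOL reads, and a gene kept in this way had to be lower elsewhere. Nfkb2, at 2.15 CPM in PBS and 21.0 CPM in ZOL+Ang2, would also have missed the filter without its ZOL reads. The count is therefore a description and supports nothing. The members' median log2 ratio, with a prior of 5 CPM added to both sides, was -1.07, beside -0.02 over all genes. The direction was the same for all 10 on the 7 scalings tried (TMM, median of ratios, library totals, totals without mitochondrial, satellite-type, ribosomal RNA, chemoreceptor and haemoglobin genes, RPKM plus 1 or plus 0.1, and thinning to equal depth).

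The summed pan-endothelial markers were themselves lower in ZOL+Ang2 than in ZOL, at 2144 against 4257 CPM, a ratio of 1.99. Relative to that sum, Nfkb1, Nfkbia, Icam1 and Vcam1 were higher in ZOL+Ang2, by log2 ratios of 0.32, 0.19, 0.21 and 0.60. Rela and Nfkb2 remained lower on this reference, at -0.42 and -1.52, as did Relb, Tnfaip3, Birc3 and Sele. The direction of those 4 genes thus turned with the reference, and the direction of the other 6 did not. The sums of other cell types moved as well: leukocyte markers (19 genes, led by Lyz2 and Lcp1) were at 2302, 271 and 2830 CPM in the PBS, ZOL and ZOL+Ang2 libraries, with 16, 13 and 15 of them above 0 and Itgam and Cd68 at 0 in all 3. Fibroblast markers (12 genes, led by Col1a1 and Col1a2) were at 373, 1043 and 11654 CPM. Erythroid markers (7 genes, led by Hba-a1 and Hbb-bs) were at 191, 7.20 and 25169 CPM. Mural markers (8 genes, led by Acta2 and Rgs5) were at 2.15, 724 and 357 CPM, with 7 of them at 0 in PBS, and epithelial markers (12 genes, led by Krt8 and Krt18) at 794, 6537 and 6275 CPM. The part these cells have in the members' values was not tested.

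**Figure D3:**
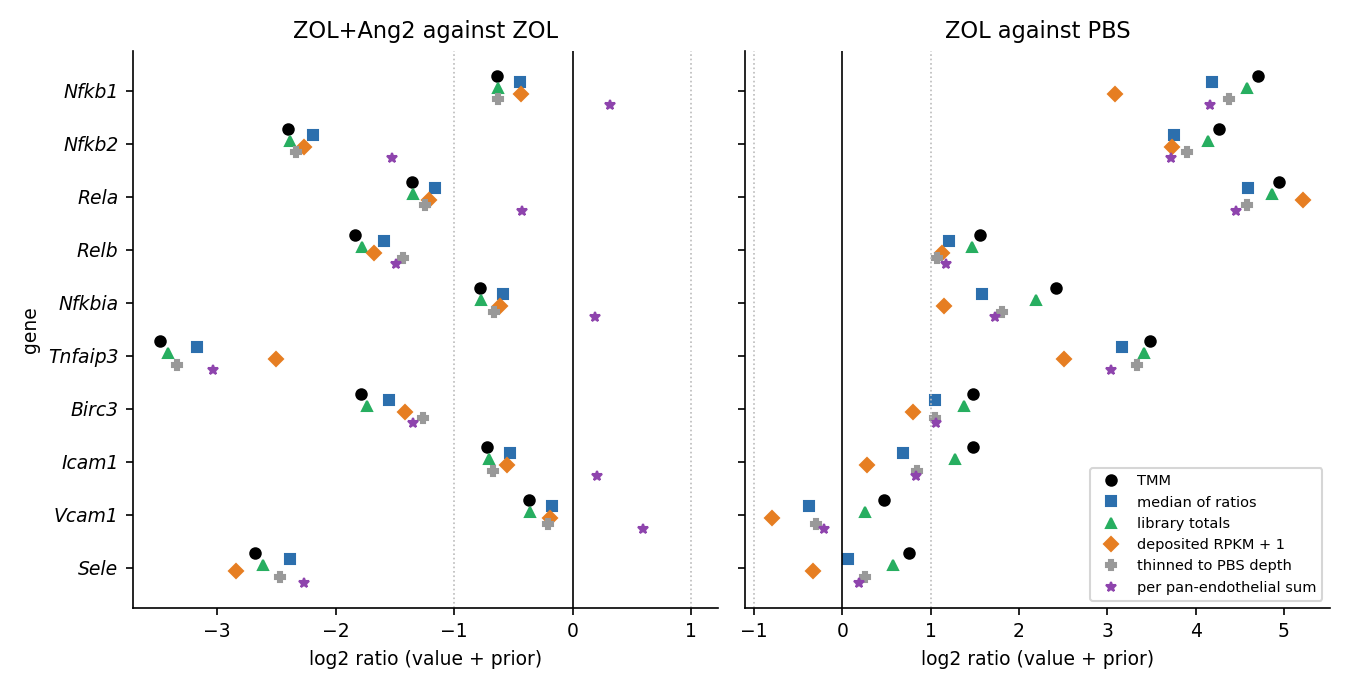
Log2 ratio of the 10 genes in ZOL+Ang2 against ZOL (left) and ZOL against PBS (right) under 6 scalings, with dotted lines at 2-fold. On the left only the values relative to the pan-endothelial sum (stars) lie above 0, for Nfkb1, Nfkbia, Icam1 and Vcam1, and on the right Vcam1 and Sele lie on both sides of 0.

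Against PBS, ZOL was higher for all 10 genes with TMM, and for 8 of them on all 7 scalings. By any amount, 38.6% of all genes compared were lower in ZOL. Of the 8 members kept by the filter, 6 were at least 2-fold higher and 0 at least 2-fold lower, against a background of 51.7% higher and 30.8% lower, so a large share of all genes moved this far in either direction. The members' median log2 ratio was 2.95, beside 0.94 over all genes. Because Nfkb2, Tnfaip3 and Sele would have missed the filter without their ZOL reads, this count and median are a description and support nothing. Rela, with 0 reads in PBS, was at least 91.8-fold higher in ZOL, and Nfkb1 was 84.5-fold higher (33.0 to 310, from 4 PBS reads). In the abundance range of Rela, 12.8% of the 1832 genes at 100 to 500 CPM in ZOL had 0 reads in PBS. Nfkb2 was 61.6-fold higher (24.01 to 226), also from 4 PBS reads, and Tnfaip3 at least 31.6-fold. Relb was 11.9-fold higher (3.27 to 99.3) and Birc3 6.95-fold (2.68 to 25.7), from 2 and 4 PBS reads.

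The members with firm PBS counts showed smaller ratios. Nfkbia was 5.60-fold higher in ZOL (4.76 to 6.63) and Icam1 3.07-fold (2.36 to 4.07). Icam1 kept its direction on every scaling, with log2 ratios from 0.28 (under 2-fold) to 1.48, and Nfkbia likewise, from 1.15 to 2.41. For Vcam1 no direction could be given, since its log2 ratio was 0.47 with TMM but -0.37 with median-of-ratios factors and -0.80 on RPKM plus 1. The same holds for Sele, at 0.75 with TMM and -0.33 on RPKM plus 1. Nfkb1, Nfkb2 and Rela had larger ratios to PBS than the adhesion genes, whereas Relb, at a log2 ratio of 1.56 with the prior, was close to Icam1, at 1.48, and with 1 library a group this was not tested.

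Comparing ZOL+Ang2 with PBS, 4 of the 8 members were at least 2-fold higher (Nfkb1, Nfkb2, Rela and Nfkbia) and 1 at least 2-fold lower (Sele). Over all genes 47.6% were higher and 35.5% lower, so the count of higher members was near the background. Nfkb2, Tnfaip3 and Sele would have missed the filter without their ZOL reads, so these counts are a description and support nothing. Nfkb1 was 53.4-fold higher (20.8 to 197), Nfkb2 9.74-fold (3.74 to 36.1), Rela at least 33.9-fold and Nfkbia 3.23-fold (2.74 to 3.84). Nfkbia was only 1.45-fold higher on RPKM plus 1, which ends its 2-fold call. The subunits Nfkb1, Nfkb2 and Rela were therefore above PBS in both other libraries. Icam1 was 1.80-fold higher (1.37 to 2.41) with TMM, but lay between -0.29 and 0.76 in log2 ratio over the scalings. Vcam1 was 1.08-fold higher (0.9501 to 1.23) with TMM, but its log2 ratio ran from -1.03 to 0.11 and lay below 0 on 6 of the 7 scalings, so no direction can be given. Tnfaip3 had 0 reads in both libraries.

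The genes upstream of these factors were described from lists of receptors and ligands, adaptors and kinases, other brakes, and other targets, 86 genes in all, of which 55 passed the filter. Of the 17 adaptors and kinases that passed, 12 were at least 2-fold lower in ZOL+Ang2 than in ZOL and 1 was higher, with a median log2 ratio of -1.10, beside 30.7% lower, 21.2% higher and a median of -0.02 over all genes. As for the members, some genes of these lists passed only because of their ZOL reads. The gene of NIK, Map3k14, which starts the non-canonical branch, was at 0, 41.5 and 0 CPM in the PBS, ZOL and ZOL+Ang2 libraries. Traf3, whose product keeps NIK levels low, was at 16.7, 64.2 and 0 CPM. Both genes passed the filter only through their ZOL reads. The IKK subunits Chuk, Ikbkb and Ikbkg were also lower in ZOL+Ang2, at 1.94, 74.0 and 7.98 CPM, than in ZOL, at 16.6, 164 and 42.9 CPM. They did not share one pattern against PBS, where Chuk was at 49.5 CPM, Ikbkb at 2.69 and Ikbkg at 27.5. Birc2 was the 1 gene of this list that was at least 2-fold higher in ZOL+Ang2.

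Of the 8 receptors and ligands that passed, 3 were at least 2-fold lower in ZOL+Ang2 than in ZOL and 1 higher, near the 30.7% and 21.2% of all genes. Tlr4, the receptor of bacterial lipopolysaccharide, was at 0, 43.1 and 3.53 CPM in the PBS, ZOL and ZOL+Ang2 libraries, and Tnfrsf1b, the gene of TNF receptor 2, at 2.15, 48.2 and 4.45 CPM. Tnfrsf1a, the gene of TNF receptor 1, was instead at 1.08, 132 and 161 CPM, and Ltbr, the lymphotoxin beta receptor gene, at 0, 30.4 and 68.3 CPM. The first pair was lower with Ang2 and the second pair was not. Against PBS all 8 were at least 2-fold higher in ZOL, as were 51.7% of all genes. Tlr3, Tlr4 and Tnfrsf1b would have missed the filter without their ZOL reads, so this count is a description and supports nothing. Tnfrsf12a, the gene of the TWEAK receptor, was at 1.08 CPM in PBS and 502 in ZOL.

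Among the 13 other Rel and IkappaB proteins and brakes that passed, 4 exceeded 2-fold upward in ZOL+Ang2 against ZOL and 2 downward, beside 21.2% and 30.7% of all genes, and the median log2 ratio was -0.02, the same as over all genes. Tnip1, whose product binds A20, was at 0, 35.5 and 0 CPM in the PBS, ZOL and ZOL+Ang2 libraries, the same shape as Tnfaip3. Nfkbie, the gene of IkappaB epsilon, was at 0, 32.4 and 77.4 CPM, and Otulin, a deubiquitinase of linear ubiquitin chains, at 2.15, 1.66 and 35.8 CPM.

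Of the 17 other targets that passed, 6 were at least 2-fold lower and 3 higher in ZOL+Ang2 than in ZOL, near the 30.7% and 21.2% of all genes. Ptgs2, the gene of cyclooxygenase 2, was at 0.538, 131 and 0.228 CPM in the PBS, ZOL and ZOL+Ang2 libraries. The chemokine gene Ccl2 was at 6.46, 24.5 and 1.14 CPM, whereas its relative Ccl7 was at 0, 0 and 32.9 CPM. Ptgs2 was thus high in ZOL and Ccl7 in ZOL+Ang2, each near or at 0 reads in the other libraries, while Ccl2 had 9.41 RPKM in PBS against 14.3 in ZOL. Tnfaip2 stood at 3.77, 14.7 and 40.8 CPM. Over all 4 lists, 23 genes were at least 2-fold lower, 9 higher and 23 within 2-fold, with a median log2 ratio of -0.49. In ZOL against PBS, 42 of the 55 were at least 2-fold higher and 4 lower, beside 51.7% and 30.8% of all genes. Their median log2 ratio was 1.99, beside 0.94 over all genes. Some of the 55 passed the filter only through their ZOL reads, so these values are a description and support nothing.

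**Figure D4:**
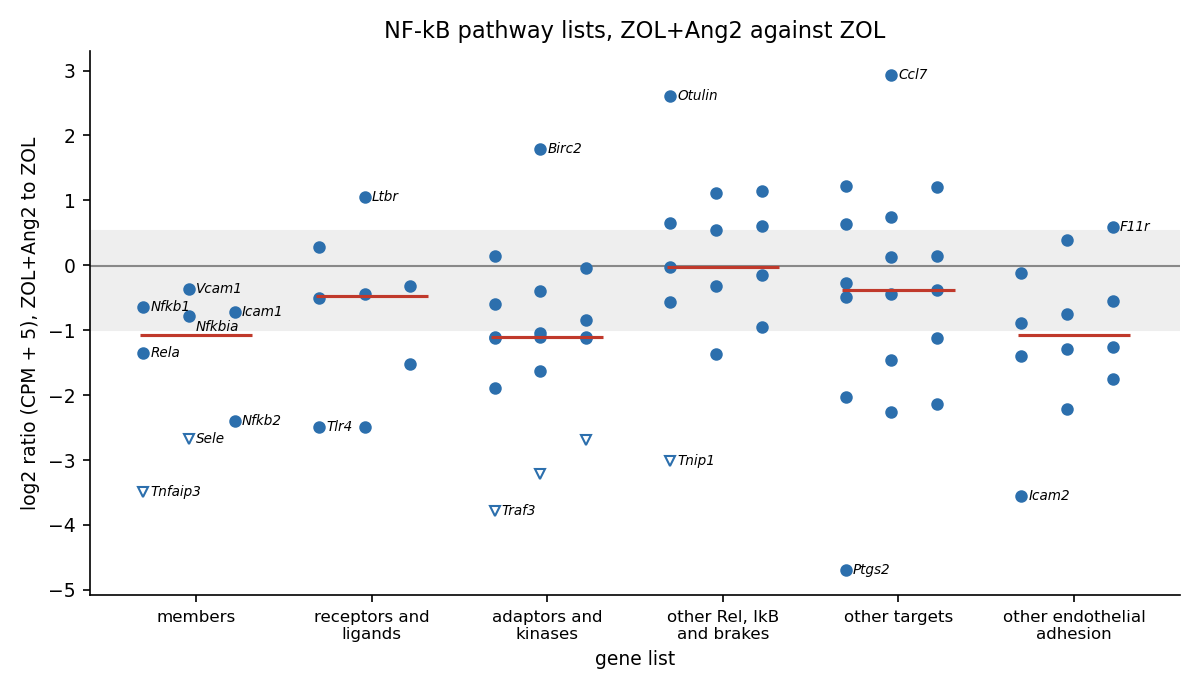
Log2 ratio of CPM plus 5 in ZOL+Ang2 against ZOL for the genes of each list that passed the filter, with 1 point per gene, open triangles for 0 reads in ZOL+Ang2, red lines at list medians and a grey band for the middle 50% of all genes. The medians of the members (-1.07), adaptors and kinases (-1.10) and other endothelial adhesion genes (-1.07) lie just below the band. That of other brakes (-0.02) lies in its centre.

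Other endothelial adhesion genes gave 12 that passed. In ZOL+Ang2 against ZOL, 6 were at least 2-fold lower and 0 higher, beside 30.7% and 21.2% of all genes. Their median log2 ratio was -1.07, like that of the members, and that of the 18 pan-endothelial markers was -1.33. A shift of this size was therefore not particular to the members. Icam2, a constitutive ligand of beta2 integrins, was at 219, 104 and 4.33 CPM in the PBS, ZOL and ZOL+Ang2 libraries, and Jam2, a junctional adhesion gene, at 75.9, 111 and 20.1 CPM. F11r and Alcam were higher in ZOL+Ang2 than in ZOL, at 169 against 111 CPM and 60.6 against 45.1 CPM. Icam2 had less in ZOL than in PBS, unlike Icam1. Of the 5 leukocyte partners of the adhesion members that passed, 2 were at least 2-fold higher in ZOL+Ang2 than in ZOL (Itga4 and Itgb7) and 0 lower. Itgb2, the beta2 integrin chain, was at 0, 70.3 and 73.5 CPM, while Itgal had 2, 1 and 0 reads and Itgam 0 in all 3 libraries. Itga4, a chain of the Vcam1 receptor, was at 53.8, 0 and 5.13 CPM.

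Nfkb2 overlaps Psd on the opposite strand, with 0, 117 and 33 reads on Psd, and Nfkb1 overlaps the unclassified model Gm43430 on its own strand, with 0, 100 and 0 reads. The sources used here do not say whether counting used the strand, so these reads cannot be told apart with certainty from those of the members. Each overlapping gene had far fewer reads than its member in ZOL.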

How the data were processed

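RNA from 3 pools, each of 6 mice and the 1 library of its group, was measured, with groups taken from the treatment label. Per the labels' protocols, cDNA was amplified from total RNA with a single-cell full-length kit. The submitters' processing notes list the mm10 genome, featureCounts 2.0.6, HISAT2 2.2.1 and fastp. The sources used here name no annotation, strand setting or library total behind the deposited RPKM values, which the authors computed.

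The design assumed counts, so reads were recovered: RPKM times exon length (GENCODE M21) fell within 0.01 of a whole multiple of 1 step for 96.9%, 96.4% and 96.2% of the nonzero values (PBS, ZOL, ZOL+Ang2). For 618 genes, Nfkb2 and Rela among them, another length that made the values whole was searched for within 0.5 to 1.6 times the exon length, a step added after the files were seen, which raised these shares to 99.6%, 99.5% and 99.7%. The annotation held no exon length for 37 genes, which were left out. Recovered reads come to 1.50, 0.701 and 0.785 times the totals the RPKM imply, so they may not be the authors' own counts. Reads without molecular identifiers are not independent molecules, and all intervals and floors cover counting error only.

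CPM used TMM factors (1.11, 0.946 and 0.953, trims of 30% and 5%, computed with numpy 2.4.6). Genes that averaged 10 CPM or more were compared, folds are CPM ratios with exact conditional binomial intervals (scipy 1.17.1), log2 ratios use a prior of 5 CPM, and a gene counts as different from 2-fold on. A fold against 0 reads uses a floor of 3 reads in that library. The procedure was run on reads simulated with the same exon lengths and steps. That run checked the code and could not show whether recovered reads match the authors' counts. All 10 members are named, and from each list the genes at either end of each comparison, with Rel; other names were picked with their values in view. The members and lists were chosen with earlier results of these data known. Protein sequences of the subunits were not analysed here.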

Additional observations from a re-analysis of the deposited data

How the results depend on the processing

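Of 78 counts of members past 2-fold under 13 alternatives each, 73 stayed within 1.5 times the reported count. The alternatives included a 4-fold cut. Counts lower in ZOL than in PBS, and counts higher in ZOL+Ang2 than in ZOL, were 0 throughout and add to the 73. The sizes of the folds shifted between scalings, as given above. Members at least 2-fold lower in ZOL+Ang2 than in PBS numbered 1 as reported, 3 with a mean of at least 1 CPM or with no filter, 2 on RPKM plus 0.1 and 0 with a mean of at least 50 CPM. Those at least 2-fold lower in ZOL+Ang2 than in ZOL numbered 4, and 2 with a mean of at least 50 CPM, where fewer members are counted. The motif shares over whole promoter windows were 8.459% for the consensus and 18.477% for GGNNNTTCC, with the same members matched. With 1 library a group, no replicate could be left out. No paired analysis was possible because each group has 1 library and the labels give no replicate numbers. The low depth of PBS, where 6 of the members had 4 reads or fewer, limits every ratio against it. So does the 37.6% share of PBS reads on the gene classes that 1 of the scalings left out. The planned search of the subunits' proteins was not run.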
